A study of Mus musculus with 62 samples.

Results

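The troponins and tropomyosins are the regulatory proteins of the thin filament, and 10 of their genes were followed in mouse gastrocnemius muscle during the growth of a melanoma. They were chosen by symbol from a table of 47643 gene symbols: the troponin I genes Tnni1 and Tnni2, the troponin T genes Tnnt1, Tnnt2 and Tnnt3, the troponin C genes Tnnc1 and Tnnc2, and the tropomyosin genes Tpm1, Tpm2 and Tpm3. All 10 were found, and all 10 were among the 12364 genes expressed highly enough to be tested (at least 1 TPM in at least 5 libraries, where TPM is transcripts per 1000000, a level corrected for gene length and library size). Female mice, 2 months old, received an injection of melanoma cells, either cachectic (CAC) or non-cachectic (NCAC), or a mock injection (Con), and the gastrocnemius, a calf muscle, was taken 2, 4, 6 or 8 weeks later. Cachexia is the loss of muscle and body fat seen with some cancers. Each of the 12 groups had 5 libraries of poly(A)-selected RNA, except CAC at 8 weeks with 7, which made 62. The sources disagree on the host: the series text names NCI Ath/nude mice and the sample labels the strain C57BL6/J. They also do not name the melanoma lines, and the extraction protocol refers to another tumour model. The libraries are called biological replicates without a statement that each came from its own mouse. The p-values thus set differences of group means against the spread between libraries, which may not be that between mice.

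In a muscle fibre, tropomyosin is a coiled coil that lies along the actin filament and at rest covers the sites where myosin binds. The troponin complex sits on it and has a subunit that binds calcium (troponin C), one that inhibits the filament at rest (troponin I) and one that anchors the complex to tropomyosin (troponin T). Fast and slow fibres use different genes for each subunit: Tnni2, Tnnt3 and Tnnc2 are the fast set, and Tnni1, Tnnt1 and Tnnc1 the slow set, with Tnnc1 also serving the heart. Tnnt2 is the troponin T of the heart, which skeletal muscle expresses mainly during development. Tpm1 encodes alpha-tropomyosin, typical of fast fibres and heart, Tpm2 encodes beta-tropomyosin, and Tpm3 the alpha-tropomyosin of slow fibres. The table gives 1 value per gene, so muscle and non-muscle isoforms of a tropomyosin gene were not separated.

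Several of these genes lie close together. In build mm10, with the GENCODE annotation, Tnni1 (chromosome 1, 135779434 to 135810989) and Tnnt2 (135836354 to 135852260) are 25364 bases apart with Lad1 between them. Tnni2 (chromosome 7, 142441808 to 142444410) and Tnnt3 (142498836 to 142516009) are 54425 bases apart with Lsp1 between them. Tnnt1 (chromosome 7, 4504570 to 4516382) lies 1922 bases from Tnni3, the cardiac troponin I gene. Tnnc1 is on chromosome 14 (31208312 to 31211729), Tnnc2 on chromosome 2 (164777161 to 164779967), Tpm1 on chromosome 9 (67022590 to 67049406), Tpm2 on chromosome 4 (43514711 to 43523765) and Tpm3 on chromosome 3 (90072649 to 90100902). Tnnt3 overlaps the non-coding gene Prr33 on the other strand. Tpm3 has a near-identical retrogene copy, Tpm3-rs7, with which reads can be shared, so the level of Tpm3 is uncertain to that extent. The copy lay between 0 and 31.3 TPM.

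Because Tnnc1 and Tnnt1 moved together across libraries, and Tnnc2 and Tpm1 did so in another set (below), sequence upstream of their start sites is shown. It comes from the RefSeq promoter table of build GRCm38.p6, which gives 250 bases before and 50 after a start and held 11 windows for 8 of the 10 genes. Tnni2 and Tnnt3 had none. Only the part before the start and outside annotated exons is printed for Tnnc1 (chr14:31208062-31208311, plus strand), Tnnt1 (chr7:4516005-4516225, minus strand) and Tnnc2 (chr2:164779742-164779867, minus strand). For Tpm1 (chr9:67049252-67049281, minus strand) and Tnnt2 (chr1:135836295-135836324, plus strand) 30 bases around a match are printed. The starts are those of RefSeq, and the stretches of Tnnt1, Tnnc2 and Tpm1 lie inside the GENCODE bounds of their genes given above. Capitals mark matches to the E-box CANNTG, the consensus of the MyoD family, and to the MCAT element CATTCC or its reverse complement GGAATG, the consensus of TEAD factors.
Tnnc1: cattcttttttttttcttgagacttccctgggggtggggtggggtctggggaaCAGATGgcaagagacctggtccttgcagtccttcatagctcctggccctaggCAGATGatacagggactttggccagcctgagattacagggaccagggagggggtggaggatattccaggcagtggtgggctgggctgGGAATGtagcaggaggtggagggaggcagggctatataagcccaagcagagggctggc
Tnnt1: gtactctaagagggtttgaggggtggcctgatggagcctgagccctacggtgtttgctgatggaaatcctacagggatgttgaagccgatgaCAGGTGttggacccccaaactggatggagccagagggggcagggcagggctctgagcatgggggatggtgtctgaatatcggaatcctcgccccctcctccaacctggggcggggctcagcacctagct
Tnnc2: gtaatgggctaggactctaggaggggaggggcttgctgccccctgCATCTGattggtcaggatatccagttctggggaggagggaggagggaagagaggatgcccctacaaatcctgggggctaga
Tpm1: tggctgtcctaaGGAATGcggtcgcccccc
Tnnt2: tctcctgctgcaCATTCCtccctccgcggg
An E-box was found in all 11 windows, and 72.3% of the 32851 windows in the table hold one. An MCAT match was found in 3 windows, of Tnnt2, Tpm1 and Tnnc1, against 14.7% of all windows. Bases just after the start were found in a GENCODE transcript of the gene for 8 of the 11 windows. The Tnnt2 window that holds the MCAT match was not among them. The MEF2 and CArG consensus motifs matched in 0 of the 11 windows, against 3.19% and 1.63% of all windows. Both strands were searched, and none of these 4 motifs overlapped another in the printed stretches. A match is a run of letters and not a measured binding site.

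The levels spanned more than 4 orders of magnitude in the mock-injected mice, with the fast set on top. Over the 20 Con libraries, mean TPM was 23229 ± 1657 for Tnnt3, 22885 ± 1403 for Tnnc2 and 10830 ± 843 for Tnni2 (SD, n = 20). The troponin T and troponin C levels did not separate, since Tnnt3 was above Tnnc2 in 13 of the 20 libraries, whereas Tnni2 was below both in all 20. The tropomyosins followed with 5691 ± 467 for Tpm1 and 3182 ± 518 for Tpm2. The slow set lay far lower, at 387 ± 122 TPM for Tnnc1, 327 ± 87.1 for Tnnt1, 140 ± 42.3 for Tpm3 and 103 ± 32.5 for Tnni1. Tnnc1 was above Tnnt1 in 18 of 20 libraries, and the other neighbours in this order kept it in all 20. Tnnt2 was lowest, at 1.01 ± 0.431 TPM. TPM does not keep sequencing depth, but with annotated exon lengths the libraries were estimated at 39.6 to 48.4 M reads (M, 1000000), so that Tnnt2 rested on about 73.2 to 483 reads per library and every other member on 3821 reads or more.

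Fast and slow members also differed in how much they varied between mock-injected libraries. The coefficient of variation in Con was 6.13% for Tnnc2, 7.13% for Tnnt3, 7.79% for Tnni2 and 8.21% for Tpm1. It was 16.3% for Tpm2, 26.6% for Tnnt1, 30.3% for Tpm3, 31.4% for Tnni1, 31.4% for Tnnc1 and 42.8% for Tnnt2. The SE of the log2 difference between CAC and Con at 8 weeks ran from 0.07 for Tnni2 to 0.26 for Tnni1, and was largest for the 4 slow genes. Genes of mitochondrial DNA held 24.2% ± 3.53 of TPM in CAC at 8 weeks (SD, n = 7) against 33.5% ± 3.02 in Con (SD, n = 5), and the median log2 difference of all tested genes between them was 0.36. TPM is a share of a fixed total, so each comparison was repeated after median-ratio scaling, which sets the typical gene to the same level in all libraries and shifts the CAC minus Con differences by -0.084, -0.16, -0.27 and -0.34 at 2, 4, 6 and 8 weeks. The labelled tissue was checked against its markers. Ckm, Acta1, Des, Mb, Tnnc2 and Ttn summed to 64045 TPM or more in every library. Of the 5 heart genes listed, Nppa, Nppb and Ryr2 stayed under 1 TPM and Tnni3 reached at most 1.53 TPM. Myh6 was the only 1 of the 5 expressed highly enough to be tested.

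**Figure D1:**
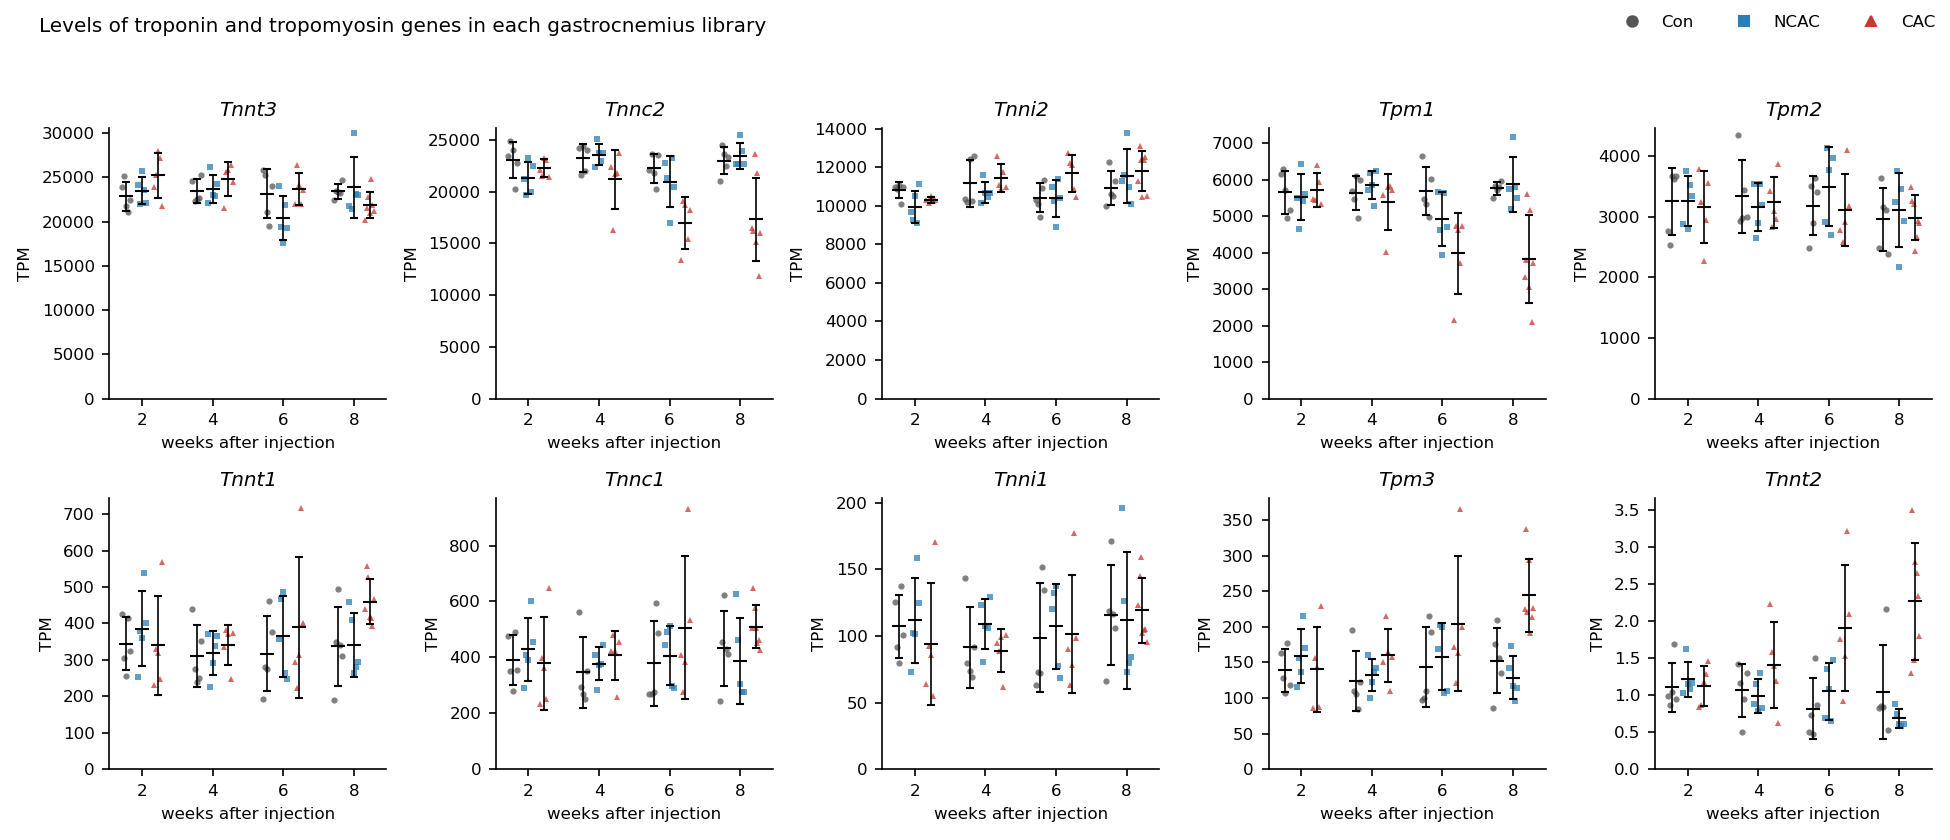
TPM of each of the 10 genes in every library, by weeks after injection and by arm; points are libraries and bars the mean ± SD. Tnnc2 and Tpm1 drop in CAC at 6 and 8 weeks, where all CAC libraries at 6 weeks sit below all Con libraries, while Tnni2 and Tnnt3 stay near the Con level.

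CAC was first compared with Con at each week, which asks how the muscle of mice with the cachectic tumour differed from that of mice without a tumour. The differences are in log2(TPM + 1) from limma, with p adjusted over the 12364 genes by the Benjamini-Hochberg method and called under 0.05. At 2 and 4 weeks 0 of the 10 members were called, against 0.283% and 25.3% of all tested genes. The lowest adjusted p among them was 0.445 at 2 weeks and 0.258 at 4 weeks, and 0 of the 10 had an unadjusted p under 0.05 at 2 weeks. At 6 weeks Tnnc2 and Tpm1 had fallen and Tnnt2 had risen, and at 8 weeks these 3 differed again, with Tnnt1 and Tpm3 higher as well. In whole muscle, fewer fibres of a type and less RNA per fibre cannot be told apart.

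Tnnc2, the fast troponin C, showed a decline in the group with the cachectic tumour. At 6 weeks its level was 13350, 19116, 18731, 15395 and 18181 TPM in the 5 CAC libraries and 22072, 23662, 21808, 20211 and 23527 TPM in the 5 Con libraries. All CAC libraries lay below all Con libraries. The log2 difference was -0.40 ± 0.11 (SE), with an adjusted p of 0.00161 by limma, and the mean was 0.762 times that of Con. At 8 weeks the CAC level had a lowest value of 11868, a median of 16209 and a highest value of 23635 TPM, and Con stood at 20990, 24523, 23622, 22434 and 23364 TPM. Of the 7 CAC libraries, 5 were below the lowest Con library and the other 2 were inside its range. The log2 difference was -0.44 ± 0.099 (SE; adjusted p = 0.000127). It stayed called in all 12 fits that left out 1 library.

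Tpm1, the alpha-tropomyosin gene, fell alongside it. At 6 weeks the CAC libraries held 2159, 4738, 4633, 3717 and 4724 TPM, and the Con libraries 6650, 5470, 5341, 4975 and 6033 TPM. The groups did not overlap, and the first CAC library was the lowest by far. The log2 difference was -0.56 ± 0.16 (SE; adjusted p = 0.00301), and without that CAC library, replicate 1, it was -0.35 and still called (adjusted p = 0.0464). At 8 weeks the CAC libraries ran from 2088 through a median of 3709 to 5609 TPM, against 5507, 5829, 5731, 5807 and 5981 TPM in Con. In this week 6 of 7 CAC libraries were below every Con library, and the mean was 0.663 times that of Con. The log2 difference was -0.66 ± 0.15 (SE; adjusted p = 0.000138). Members with all libraries of CAC below those of Con at 6 weeks were thus 2 of 10, against 2.26% of all tested genes, and at 8 weeks 0 of 10, against 1.25%.

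The partners of Tnnc2 in the fast troponin complex did not pass the test on the TPM scale. Tnnt3, the fast troponin T, was at 23647 ± 1819 TPM in CAC and 23157 ± 2758 in Con at 6 weeks, and at 21890 ± 1513 (n = 7) and 23428 ± 823 at 8 weeks (SD, n = 5 otherwise). The log2 differences were 0.04 ± 0.08 and -0.10 ± 0.08 (SE), with adjusted p of 0.727 and 0.235 by limma. Tnni2, the fast troponin I, was at 11689 ± 962 TPM against 10417 ± 751 at 6 weeks, a difference of 0.17 ± 0.08 with an adjusted p of 0.0569 (called in 3 of 10 fits, without CAC replicate 4 or 5 or Con replicate 5), and at 11802 ± 1044 against 10946 ± 886 at 8 weeks (0.11 ± 0.07; adjusted p = 0.165). At 8 weeks both genes were lower in CAC after median-ratio scaling, with -0.52 ± 0.10 for Tnnt3 (adjusted p = 6.24e-05) and -0.31 ± 0.11 for Tnni2 (adjusted p = 0.0130). The sign thus depended on the scale for Tnni2 at both weeks and for Tnnt3 at 6 weeks. Tnnc2 and Tpm1 kept theirs: after scaling they were at -0.86 ± 0.14 and -1.08 ± 0.19 at 8 weeks.

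Ratios of members within a library do not depend on that scale. Tnnc2 divided by Tnnt3 was 0.715 ± 0.0686 in CAC and 0.968 ± 0.0762 in Con at 6 weeks (SD, n = 5), and all CAC libraries were below all Con libraries. At 8 weeks it was 0.787 ± 0.152 (SD, n = 7) against 0.981 ± 0.0454, with overlap. The mean of this ratio was already lower in CAC at 2 weeks (0.887 ± 0.0652 against 1.01 ± 0.0554) and at 4 weeks (0.862 ± 0.155 against 0.991 ± 0.0516). At both of these weeks the groups overlapped, and NCAC at 2 weeks stood at 0.909 ± 0.0656 (SD, n = 5). Tpm1 divided by Tnnt3 was 0.246 ± 0.00314 in Con at 8 weeks (SD, n = 5), and ran from 0.0953 to 0.246 in the 7 CAC libraries. Tnnc2 divided by Tnni2 was 1.47 ± 0.318 in CAC and 2.10 ± 0.0853 in Con at 8 weeks, where no CAC library reached the lowest Con library. Tnni2 divided by Tnnt3 did not go the same way, at 0.540 ± 0.0439 in CAC and 0.467 ± 0.0318 in Con. The transcripts of the 3 fast subunits thus did not keep the same proportions, and troponin C was the one that was low against the others. These ratios are given as a description, without a test.

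**Figure D2:**
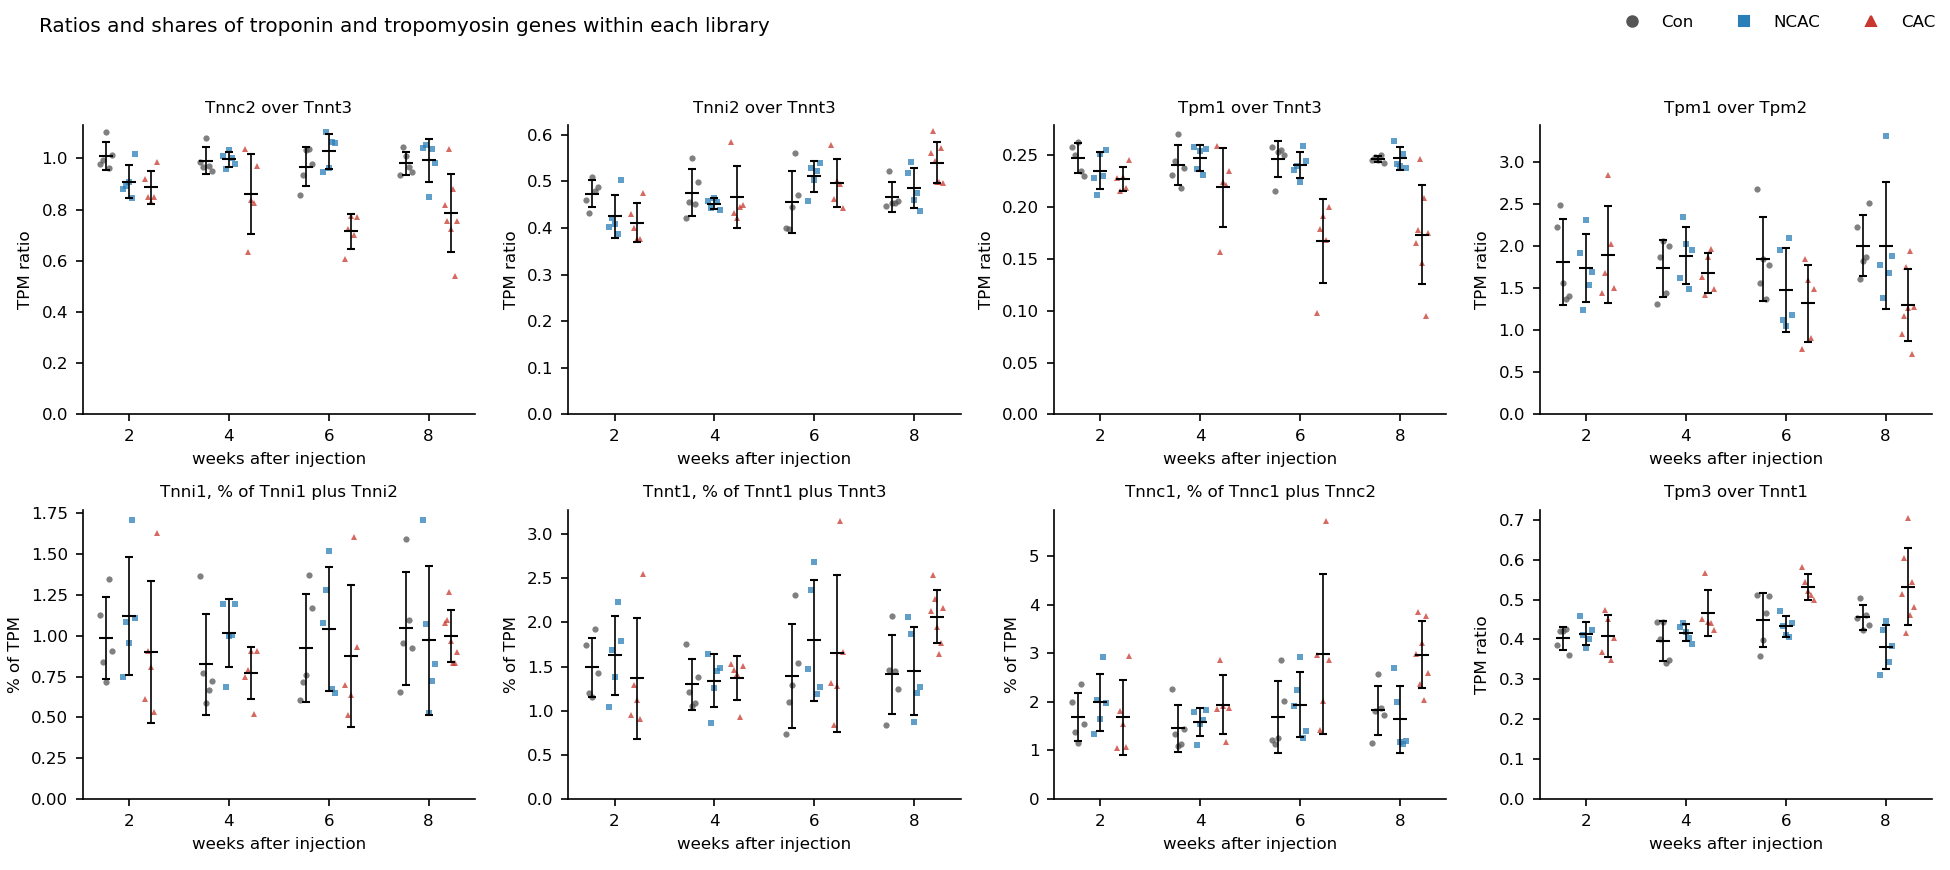
Ratios of member TPM within each library by week and arm, with the mean ± SD as bars. The means of Tnnc2 over Tnnt3 and Tpm1 over Tnnt3 are lower in CAC than in Con at every week, with the widest gaps at 6 and 8 weeks. The values of NCAC and Con overlap at every week.

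Of the 4 slow members, Tpm3 and Tnnt1 were called higher in CAC at 8 weeks, with a wide spread between libraries. Tpm3, the slow alpha-tropomyosin, had a lowest value of 191, a median of 225 and a highest value of 337 TPM in CAC at 8 weeks, against 85.9, 175, 210, 157 and 136 TPM in Con. It was above the highest Con library in 6 of 7 libraries, the log2 difference was 0.71 ± 0.24 (SE; adjusted p = 0.00831), and without Con replicate 1, the lowest of its group, the call was lost (adjusted p = 0.0611). Tnnt1, the slow troponin T, ran from 394 through 439 to 559 TPM in CAC and was 189, 348, 495, 340 and 311 TPM in Con. Only 2 of 7 CAC libraries were above the Con range. The difference of 0.50 ± 0.23 (SE) was just called, with an adjusted p of 0.0479 by limma, and of the 12 fits that left out 1 library it was called in 3, those without CAC replicate 5 or 6 or Con replicate 3. Over these fits it ran from 0.31 to 0.66. Tnnc1 (0.29 ± 0.25; adjusted p = 0.312) and Tnni1 (0.08 ± 0.26; adjusted p = 0.783) did not pass the test, and after scaling Tpm3 stood at 0.29 and Tnnt1 at 0.08, neither called.

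Slow genes made up a small share of each subunit. Tnnt1 was 2.07% ± 0.304 of Tnnt1 plus Tnnt3 in CAC at 8 weeks (SD, n = 7) and 1.41% ± 0.447 in Con (SD, n = 5). Tnnc1 was 2.97% ± 0.686 of Tnnc1 plus Tnnc2 against 1.83% ± 0.505, and Tnni1 1.00% ± 0.160 of Tnni1 plus Tnni2 against 1.05% ± 0.344. Among the 3 tropomyosins, Tpm3 made up 3.58% ± 1.04 against 1.70% ± 0.445, with all 7 CAC libraries above all 5 of Con, and Tpm1 53.2% ± 8.36 against 65.2% ± 4.00. Tpm2, the beta-tropomyosin, was at 2987 ± 367 TPM in CAC and 2954 ± 518 in Con, a log2 difference of 0.02 ± 0.14 (adjusted p = 0.882). After median-ratio scaling Tpm2 was called lower, at -0.40. Its share of the 3 was 43.3% ± 7.80 against 33.1% ± 3.75. The mean slow share of troponin I thus differed little between the groups, while those of troponin T, troponin C and tropomyosin were higher in CAC. For troponin T and troponin C the groups overlapped. A share depends on all of its genes: Tnnc2 and Tpm1 were lower in CAC, and Tnnc1 did not pass the test. These shares carry no test.

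Tnnt2, the heart troponin T, was the least abundant member and rose with the largest ratio. At 6 weeks it was at 1.76, 0.915, 1.53, 3.22 and 2.09 TPM in CAC and 0.504, 0.735, 0.481, 1.50 and 0.868 TPM in Con. Of the 5 CAC libraries 4 were above the highest Con library. The log2 difference on TPM + 1 was 0.65 ± 0.18 (SE; adjusted p = 0.00213), which understates the change of so low a gene: the ratio of mean TPM was 2.33. At 8 weeks the CAC libraries ran from 1.30 through a median of 2.34 to 3.50 TPM, and Con held 0.827, 0.850, 0.844, 2.16 and 0.526 TPM. The fourth Con library was inside the CAC range and the other 4 lay below it. The difference was 0.69 ± 0.17 (adjusted p = 0.000295), it stayed called without any 1 library, and after scaling it was 0.42 ± 0.16 (adjusted p = 0.0287). The heart troponin I gene Tnni3 was too low to be tested, at 0.411 ± 0.133 TPM in CAC and 0.456 ± 0.603 in Con at 8 weeks.

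Counted together, 1 member was higher and 2 were lower in CAC than in Con at 6 weeks. Of all tested genes 51.8% were called higher and 5.41% lower at that week. At 8 weeks 3 members were higher and 2 lower, against 65.3% and 5.55% of all tested genes. After scaling the counts were 1 higher and 3 lower at 6 weeks, against 14.3% and 16.9%, and 1 higher and 5 lower at 8 weeks, against 22.0% and 22.6%. The median log2 difference of the members at 8 weeks was 0.09, and that of all tested genes 0.36. Macrophage markers (Adgre1, Cd68, Csf1r, C1qa, C1qb and Mrc1) were called higher in CAC than in Con at 8 weeks for 6 of 6 genes, and for 4 of 6 after scaling. Their summed TPM ran from 130 to 457 in CAC and from 38.0 to 146 in Con. At 4 weeks 6 of 6 were already called higher, where 0 of the 10 members and 25.3% of all tested genes were called in either direction. Smooth muscle markers, which share the tropomyosin genes, were mixed, with 4 of 7 higher and 2 lower, and summed to 154 to 346 TPM in CAC and 113 to 144 in Con. The part of either in the results was not tested.

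**Figure D3:**
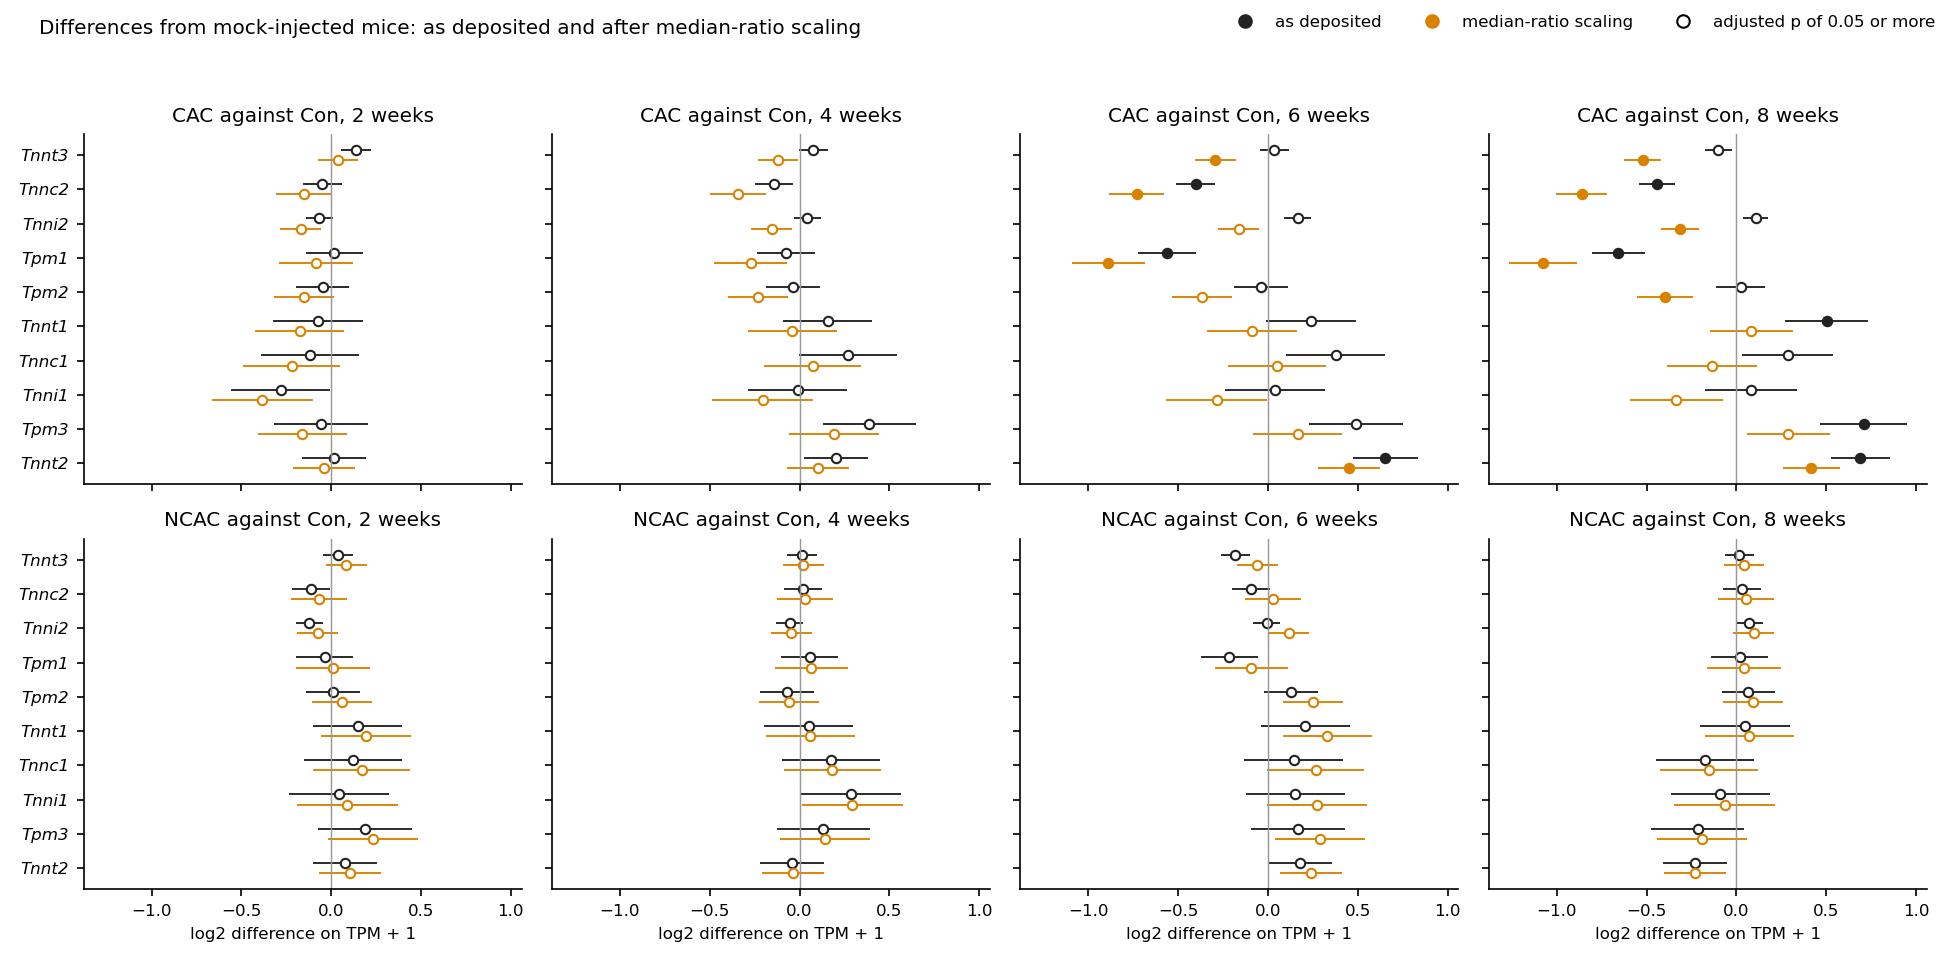
Log2 difference from Con of each gene by week, for CAC in the upper and NCAC in the lower row, with the SE as bars and filled symbols for an adjusted p under 0.05; black is TPM as deposited and orange is after median-ratio scaling. Tnnc2 and Tpm1 are lower and Tnnt2 is higher in CAC at 6 and 8 weeks on both scales, and no NCAC symbol is filled.

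CAC was next compared with NCAC, which sets the cachectic against the non-cachectic tumour. This comparison uses the same CAC libraries as the one above. At 2 and 4 weeks 0 of 10 members were called, against 1.17% and 19.7% of all tested genes. At 6 weeks 3 members were higher and 1 was lower, against 64.1% and 4.64%, and at 8 weeks 2 were higher and 2 lower, against 67.5% and 4.8%. After scaling the counts were 0 higher and 4 lower at 6 weeks, against 19.4% and 21.8%, and 1 higher and 5 lower at 8 weeks, against 21.7% and 22.8%.

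At 6 weeks the difference from NCAC was smaller for Tnnc2 and Tpm1 than at 8 weeks and rested on fewer libraries. NCAC held 22782, 21311, 16995, 23213 and 20439 TPM of Tnnc2, so 1 NCAC library lay within the CAC values. The log2 difference was -0.31 ± 0.11 (SE; adjusted p = 0.00929), and without CAC replicate 1 it was -0.23 and no longer called (adjusted p = 0.0645). NCAC held 5680, 4627, 3947, 5650 and 4708 TPM of Tpm1, with a difference of -0.35 ± 0.16 that missed the threshold (adjusted p = 0.0507) and passed it in 4 of 10 fits, without CAC replicate 2, 3 or 5 or NCAC replicate 3. Tnni2 (0.17 ± 0.08; adjusted p = 0.0409) and Tnnt3 (0.22 ± 0.08; adjusted p = 0.0180) were called higher in CAC, and after scaling both had the opposite sign, at -0.28 and -0.23. The Tnnt3 call was lost without CAC replicate 2 or NCAC replicate 3, and that of Tnni2 was kept in 4 of 10 fits, those without CAC replicate 4 or 5 or NCAC replicate 1 or 4. Tnnt2 was higher by 0.47 ± 0.18 (adjusted p = 0.0169), a call lost without CAC replicate 4, its highest library, and without NCAC replicate 1 or 4, with 0.21 after scaling and no call.

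At 8 weeks the separation from NCAC was wide for 4 members. Tnnt2 was at 0.883, 0.742, 0.613, 0.577 and 0.614 TPM in NCAC, below every CAC library, with a log2 difference of 0.92 ± 0.17 (SE; adjusted p = 5.35e-06) and a ratio of mean TPM of 3.31. Tpm3 was at 143, 173, 117, 96.0 and 114 TPM in NCAC, again below every CAC library, with a difference of 0.92 ± 0.24 (adjusted p = 0.000743). These 2 of 10 members had all CAC libraries above all NCAC libraries, against 24.5% of all tested genes. Tnnc2 was at 22629, 22614, 25456, 23908 and 22676 TPM in NCAC, with 6 of 7 CAC libraries below that range and a difference of -0.47 ± 0.099 (adjusted p = 5.11e-05). Tpm1 was at 5745, 5190, 7171, 5812 and 5492 TPM, also with 6 of 7 CAC libraries below, and differed by -0.68 ± 0.15 (adjusted p = 9.03e-05). These 4 calls held without any 1 library. After scaling Tnnt2, Tnnc2 and Tpm1 kept theirs (0.65, -0.92 and -1.12), and Tpm3 did not (0.48; adjusted p = 0.0842).

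The non-cachectic tumour was compared with the mock injection in the same way. By limma 0 of the 10 members were called at any of the 4 weeks, against 0.0% of all tested genes at each, where 471, 224, 909 and 139 genes had an unadjusted p under 0.05. Among the members only Tnnt3 at 6 weeks had one, with 20429 ± 2522 TPM in NCAC and 23157 ± 2758 in Con (SD, n = 5), a log2 difference of -0.18 ± 0.08 (adjusted p = 0.669). At 8 weeks Tnnc2 was at 23456 ± 1246 TPM in NCAC and 22986 ± 1341 in Con, and Tpm1 at 5882 ± 761 and 5771 ± 173 TPM. Those differences, 0.03 ± 0.11 and 0.02 ± 0.16, were smaller than their SE. The members' log2 differences ran from -0.23 to 0.07 at 8 weeks.

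An F test over the weeks asked whether the CAC difference from Con changed with time. Tpm1 was the only member called (adjusted p = 0.0451), against 12.1% of all tested genes, and its log2 difference from Con moved by -0.68 between 2 and 8 weeks. Tnnt2 (adjusted p = 0.0884) and Tnnc2 (adjusted p = 0.0998) missed the threshold. The Tpm1 call was fragile: it was made in 13 of the 42 fits that left out 1 library. For NCAC 0 members were called, against 0.0% of all tested genes. The weekly differences of Tpm1 from Con in CAC were 0.02, -0.07, -0.56 and -0.66, and those of Tnnc2 -0.05, -0.14, -0.40 and -0.44.

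The members fell into groups by how their levels ran across the 62 libraries. For each, the 3 tested genes of highest Pearson r in log2(TPM + 1) were listed, as a description: all libraries enter, so differences between groups are part of r. For Tnni1 they were Tnnc1 (0.92), Myl2 (0.91) and Tnnt1 (0.90). For Tnnt1 they were Myh6 (0.95), Tnnc1 (0.94) and Myh7 (0.91), for Tnnc1 Myh6 (0.95), Tnnt1 (0.94) and Tnni1 (0.92), and for Tpm3 Atp2a2 (0.95), Myh7 (0.93) and Tnnc1 (0.92). Myh7, Myl2 and Atp2a2 encode the slow myosin heavy chain, the slow regulatory light chain and the slow calcium pump. The slow members thus had high r with each other and with several slow contractile genes, though not with each of them: for Myl3, the slow essential light chain, r was 0.73 with Tnni1 and 0.37 with Tpm3. In the deviations from the group means Tnni1 and Tnnc1 reached r = 0.97, and Myl3 had r = 0.82 with Tnni1 and 0.70 with Tpm3.

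Tnnc2 and Tpm1 formed the other tight set. The closest genes to Tnnc2 were Pvalb (0.95), Mylpf (0.95) and Tpm1 (0.95), and those to Tpm1 were Tnnc2 (0.95), Pvalb (0.94) and Mylpf (0.91). Pvalb encodes parvalbumin, the calcium buffer of fast fibres, and Mylpf the fast regulatory light chain. In the deviations from the group means Tnnc2 and Tpm1 still had r = 0.91. Tnnc2 ran with neither of its complex partners to that degree, with r = 0.40 for Tnnt3 and -0.05 for Tnni2 in the levels over all libraries. In the deviations from the group means these were 0.48 and 0.35. Tnnt3 was nearest to Ckm (0.63), the muscle creatine kinase gene, Myh4 (0.61), the IIB myosin heavy chain, and Pygm (0.59), muscle glycogen phosphorylase. Tnni2 was nearest to Pebp1 (0.75), Psmb6 (0.75) and Dohh (0.74), Tpm2 to Myh2 (0.72), Ldhb (0.70) and Zfp385b (0.70), and Tnnt2 to Sln (0.77), Col23a1 (0.74) and Pde9a (0.74).

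**Figure D4:**
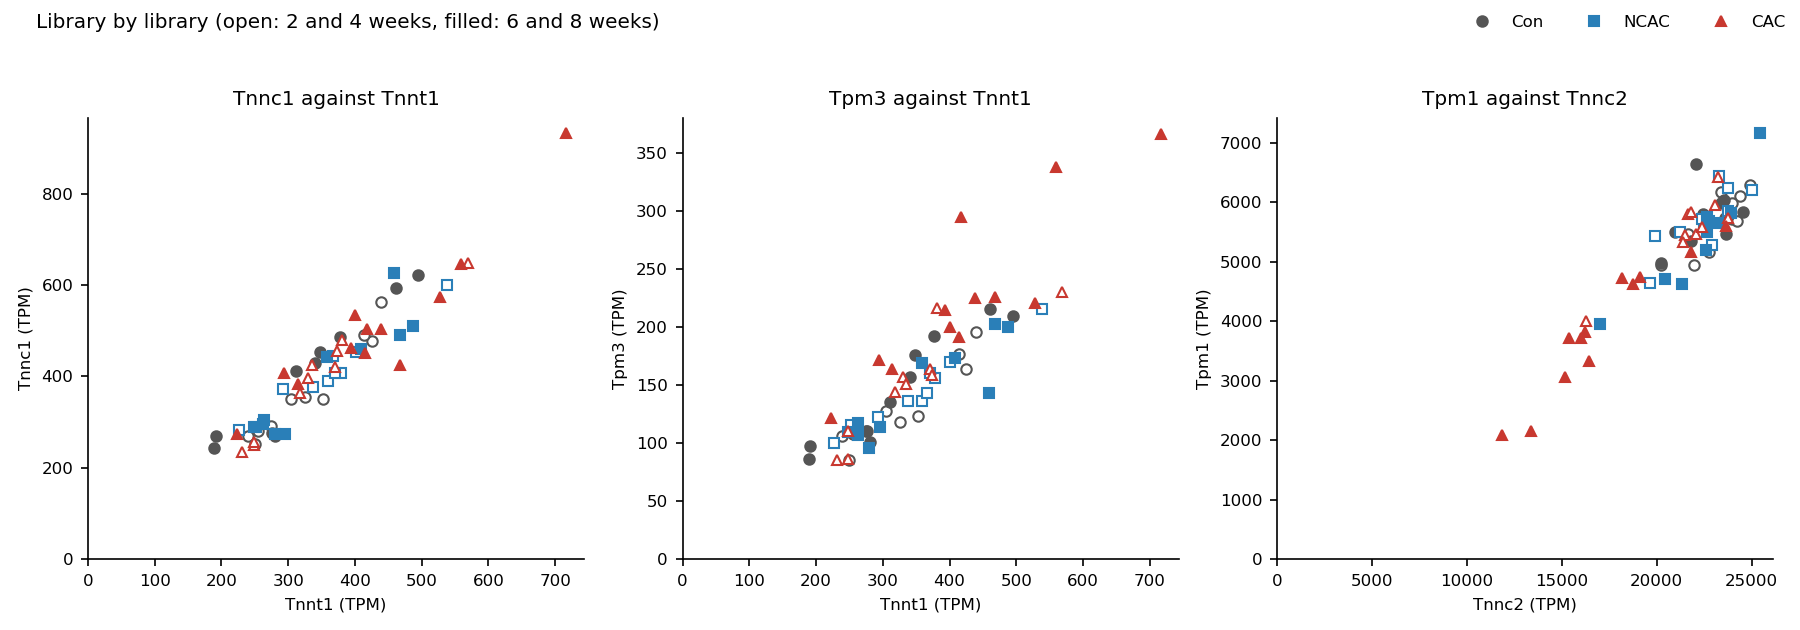
Pairs of members plotted by TPM in all 62 libraries, with open symbols for 2 and 4 weeks and filled ones for 6 and 8 weeks. Tnnc2 and Tpm1 lie along 1 line on which the CAC libraries of 6 and 8 weeks reach furthest down.

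Other genes of the contractile apparatus were counted at 8 weeks, when 65.3% of all tested genes were called higher in CAC than in Con and 5.55% lower, and 22.0% and 22.6% after scaling. Of 16 other thin filament genes, 8 were higher and 3 lower in CAC than in Con at 8 weeks, with a median log2 difference of 0.23, and after scaling 1 was higher and 7 lower. Actc1, the cardiac actin gene, was lowest relative to Con, at 76.4 ± 103 TPM (SD, n = 7) against 448 ± 166 (SD, n = 5), a difference of -3.61 ± 0.61 (SE; adjusted p = 2.16e-06). Tmod3, which encodes a cap of the pointed end of actin filaments, was higher by 0.66 ± 0.13 (adjusted p = 1.74e-05) and Klhl41, which encodes a kelch protein of the sarcomere, by 0.40 ± 0.09 (adjusted p = 0.000177). Of 12 fast fibre genes 6 were higher and 4 lower, and 0 and 5 after scaling. Pvalb (-1.07 ± 0.23; adjusted p = 6.73e-05) and Myl1, the fast essential light chain (-0.90 ± 0.18; adjusted p = 3.57e-05), fell like Tnnc2 and Tpm1. Atp2a1, the fast calcium pump, was higher by 0.47 ± 0.10 (adjusted p = 5.13e-05), and at 0.05 with no call after scaling. Of 12 slow fibre genes 5 were higher and 0 lower, among them Ankrd2 (1.54 ± 0.36; adjusted p = 0.000211), Myoz2 (0.93 ± 0.21; adjusted p = 0.000122) and Atp2a2 (0.62 ± 0.21; adjusted p = 0.00817), and after scaling 2 were higher and 1 lower. In each of these 3 lists the share called higher was below that of all tested genes before scaling.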

How the data were processed

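Poly(A) RNA of 62 gastrocnemius libraries was made into sequencing libraries with a TruSeq stranded mRNA kit, per the labels' protocols. The authors deposited 1 table of TPM, each library summing to 1000000, on build mm10 per the submitters' processing notes. Which aligner, counter and annotation the authors used is not given in the sources used here. Groups were taken from the titles and descriptions, because the treatment tag reads the same for all libraries. All 62 columns were mapped, and 0 libraries were identical. TPM holds no counts, so no count test was run. Reads per library were estimated from the lowest TPM steps and annotated exon lengths, and 65.8% to 79.5% of low values came out within 0.02 of a whole read, so these depths are approximate.

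Genes with at least 1 TPM in at least 5 libraries were tested with limma 3.58.1 (R 4.3.3) on log2(TPM + 1), with 12 group means in 1 model, a trend on expression, Benjamini-Hochberg adjustment within each comparison and a threshold of 0.05. The scripts were tested on simulated data. Each test was repeated with a pseudocount of 0.1, without the filter, with a filter of 5 TPM, with median-ratio scaling, without mitochondrial genes, with array weights, with only the groups compared, with a replicate block and without each library in turn. Ratios, shares and correlations have no test. Coordinates are from GENCODE for mm10 and promoter windows from RefSeq for GRCm38.p6. Named are the 10 genes and their relatives Tnni3, Tpm4 and Tpm3-rs7, from each of 4 lists of contractile genes the 3 of lowest p in CAC against Con at 8 weeks, and the 3 genes most correlated with each member. Of the list genes, 2 (Mymk and Mymx) were not matched by symbol. The members and lists were chosen with earlier results of these data known.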

Additional observations from a re-analysis of the deposited data

Results flagged for a closer look

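In 8 of the 120 groups of 5 to 7 libraries that the 10 genes and 12 groups give, 1 library stood apart from the rest of its group by Dixon's 95% criterion, a gap that chance gives in about 1 group in 20. In Con, Tnni2 at 2 weeks was lowest in replicate 4, with 10080 TPM against 10865 in the nearest library. Tnnt2 stood high in replicate 4 of Con at 2 weeks (1.68 TPM, nearest 1.04) and in replicate 4 of Con at 8 weeks (2.16 TPM, nearest 0.850), where it is the Con library inside the CAC range. Tnnt2 also stood high in replicate 2 of NCAC at 2 weeks (1.63 TPM, nearest 1.16). In NCAC at 8 weeks Tnnt3 was highest in replicate 3, at 29965 TPM against 23082 in the nearest library.

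The CAC group at 4 weeks held the other 3. Tnnc1 was low in replicate 4, with 257 TPM against 421 in the nearest library. Tnnc2 and Tpm1 were both low in replicate 2, with 16258 TPM of Tnnc2 (nearest 21670) and 4009 TPM of Tpm1 (nearest 5582). In that library alone of its week, both genes were inside their CAC range at 6 weeks.

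The difference of Tpm1 between CAC and Con itself differed between weeks by limma's F test (adjusted p = 0.0451). Over the 42 fits that left out 1 library the adjusted p ran from 0.00937 to 0.0799, and 13 of them called it.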

How the results depend on the processing

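The calls of Tnnc2 and Tpm1 (lower) and Tnnt2 (higher) in CAC against Con at 8 weeks held under every alternative that gave a value. Tnnt2 had none under the stricter filter, which it did not pass. Median-ratio scaling turned the sign in CAC against Con for Tnni2 at 6 and 8 weeks (-0.16 and -0.31), Tnnt3 at 6 weeks (-0.29) and Tpm2 at 8 weeks (-0.40), and in CAC against NCAC for Tnni2 at 6 and 8 weeks (-0.28 and -0.41) and Tnnt3 at 6 weeks (-0.23). Leaving out mitochondrial genes turned it in the same cases but 1, with Tnnt3 at -0.13 and -0.031 at 6 weeks, Tnni2 at -0.082, -0.076 and -0.13, and Tpm2 at -0.17. Leaving out 1 library spread Tnnt3 in CAC against Con at 6 weeks from -0.025 to 0.077, Tpm2 at 8 weeks from -0.048 to 0.10 and, against NCAC, from -0.17 to 0.030, and Tnni2 against NCAC at 8 weeks from -0.012 to 0.10. None of these was called on the TPM scale as deposited except the 2 genes at 6 weeks against NCAC.

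For CAC against NCAC at 6 weeks 4 members were called, 2 with no filter, 2 with array weights, 1 with only the groups compared in the model, and 2 to 5 without 1 library. The change of CAC over weeks had 1 called member, 0 with no filter or with only the groups compared, 3 with mitochondrial genes left out or array weights, and 0 to 3 without 1 library. Without 1 library the counts were 3 to 4 and 3 to 5 in CAC against Con at 6 and 8 weeks and 4 to 6 in CAC against NCAC at 8 weeks, where Tnnt1 and Tnnc1 were called without NCAC replicate 1 only. The other counts were 0 throughout. With no filter (0.50), array weights (0.44), the replicate block (0.54) or mitochondrial genes left out (0.31), the Tnnt1 call at 8 weeks was lost, as was that of Tpm3 in the last (0.52). The cause was not tested.

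The replicate numbers do not pair the libraries: deviations of same-numbered libraries had r from -0.30 to 0.29, and 22 of 124 libraries correlated best with their own number. A replicate block left 3 and 4 called members in CAC against Con and 5 and 4 in CAC against NCAC at 6 and 8 weeks, and 0 over weeks. Depth was lowest for Tnnt2, at about 73.2 to 483 reads per library.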

Other observations

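Other genes of developing or regenerating fibres, where skeletal muscle also expresses Tnnt2, were compared in the same libraries. Of 8 such genes 5 were tested, and 0 were higher or lower in CAC than in Con at 8 weeks on the TPM scale. Of all tested genes 65.3% were called higher and 5.55% lower there. After scaling 0 of the 5 were higher and 1 was lower, against 22.0% and 22.6% of all tested genes. Myog, a transcription factor of muscle differentiation, was at 14.1 ± 5.33 TPM in CAC (SD, n = 7) and 9.72 ± 1.44 in Con (SD, n = 5), a log2 difference of 0.44 ± 0.29 (SE; adjusted p = 0.168 by limma). Ncam1, a cell adhesion gene of young and denervated fibres, was at 2.24 ± 0.736 and 1.75 ± 0.368 TPM (adjusted p = 0.102). Myl4, the embryonic light chain, was at 2.35 ± 0.455 and 2.98 ± 1.10 TPM (adjusted p = 0.115), and after median-ratio scaling it was called lower, at -0.51. Against NCAC at 8 weeks 3 of the 5 were higher and 0 lower, against 67.5% and 4.8% of all tested genes. Among the 3 were Myog (0.72 ± 0.29; adjusted p = 0.0233) and Ncam1 (0.32 ± 0.12; adjusted p = 0.0160). After scaling 0 were higher and 1 was lower, against 21.7% and 22.8% of all tested genes.

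Tpm4, a tropomyosin of non-muscle cells, was at 33.5 ± 13.2 TPM in CAC (SD, n = 7), 23.9 ± 6.58 in NCAC and 25.3 ± 3.67 in Con (SD, n = 5) at 8 weeks. It was called higher in CAC than in NCAC (0.44 ± 0.17; adjusted p = 0.0193) but not against Con (0.32 ± 0.17; adjusted p = 0.0847), and after scaling neither was called (0.01 and -0.08).

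The 10 members summed to 52486 to 69100 TPM in the CAC libraries at 8 weeks, to 61974 to 70867 in Con and to 65000 to 79312 in NCAC. Fibroblast markers at 8 weeks were higher in CAC than in Con for 2 of 6 genes, endothelial markers for 4 of 5 with 1 lower, satellite cell, Schwann cell and adipocyte markers for 1 of 4 each, and blood cell markers for 0 of 3. Of all tested genes 65.3% were called higher and 5.55% lower in that comparison. After scaling 2 endothelial markers were higher and 1 lower, and 1 adipocyte marker was higher and 1 lower. The other counts stayed the same, against 22.0% higher and 22.6% lower of all tested genes. The 5 melanocyte and melanoma markers were too low to be tested and summed to at most 1.23 TPM in CAC at 8 weeks.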
